A study of Mus musculus with 9 samples.

Results

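The transcripts described here stood high in 2 of the 3 comparisons of a mouse hippocampus series and not in the last. They are 35 probes for 35 genes, chosen from 2719 probes that could meet the rule among 29922 on the arrays. Ratios are relative to the median ratio of the same array over its listed probes. A probe then qualified if it carried a gene symbol, was listed on at least 2 arrays of each comparison, and had a mean log2 ratio of 1.5 or more in wild-type (WT) mice of 12 over 3 months, of 1.5 or more in 3xTG over WT mice at 3 months, and below 1 in 3xTG over WT mice at 12 months. Because all 3 comparisons chose the members, their ratios are given as a description, with no test. Both high ratios have the same WT mice of 3 months in the denominator, so a lower level in those mice and higher levels in the other groups cannot be told apart for any member.

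RNA came from a single hippocampus of each of 8 female mice, 2 per group. The groups were 3xTG at 12 months (mice 4 and 7), 3xTG at 3 months (mice 22 and 23), WT at 12 months (mice 24 and 25) and WT at 3 months (mice 15 and 16). The WT strain is labelled 129SV with C57BL6, and no treatment is given. As background, the 3xTG line carries mutant human APP and tau transgenes under a Thy1 cassette, which is active in neurons, and it is studied as a model of the amyloid and tau pathology of Alzheimer's disease. Each of 9 two-colour oligonucleotide arrays set a test mouse against a reference mouse, and 3 arrays carried the test RNA in Cy5, the other 6 in Cy3. By the submitters' count, 6 are biological replicates and 3 technical ones, so SDs over arrays partly repeat the same mice.

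Between 13683 and 16191 probes were listed per array, and no deposited value lay between -0.5 and 0.5. After centring this left an empty band on each array, from 0.37 to 1.37 on arrays 1 and 2 and from 1.21 to 2.21 on array 3 of 3xTG over WT at 12 months. In the 3-month genotype comparison the band ran from 0.34 to 1.34 on array 2 and lay below 0 on the other arrays, and in WT ageing it lay below -0.9 on all 3 arrays. The ratios give no level of a transcript in any mouse, so the hippocampal label could be set only against ratios of marker genes. In bulk tissue fewer cells of a type and less RNA per cell cannot be told apart.

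No cell process unites the members by definition. Several belong to well-known machineries of hippocampal cells. The m6A writer complex methylates adenosines in messenger RNA and thereby marks transcripts for splicing, export, translation or decay. The endoplasmic reticulum (ER) folds membrane and secreted proteins with chaperones of the heat shock family and their DnaJ partners. SCF ubiquitin ligases are built on cullin and Skp1 and tag proteins for the proteasome, while sorting complexes on endosomes return membrane proteins to the cell surface. On the surface of neurons, ligands such as Cd200 restrain microglia, and sodium channel subunits and scaffolds shape excitability and synapses.

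Of the 35 members, 6 were listed on all 9 arrays and have the most values: Wtap, Dnajb9, Cd200, Rit2, Skp1 and Desi2. All 6 also met the rule on ratios as deposited, without centring. With arrays centred on abundant transcripts Wtap, Dnajb9 and Rit2 did and Cd200, Skp1 and Desi2 did not, and with arrays centred on the probes listed on all 9 arrays none of the 6 did. The 5 members that met it under that last centring were Srek1ip1, Efcab14, A730049H05Rik, Csnk2b and Stat5b. A further 17 were listed on 7 or 8 arrays and 12 on 6 arrays. Promoters of 29 members were found by symbol in the RefSeq table of build GRCm38.p6, each with 250 bases before and 50 after the start that the table uses. For Skp1 and Cd200 this start lies inside the span of the gene and not at its first base, so positions there refer to the start in the table. They are shown for 5 of the 6 members listed on all arrays, so that the start regions of transcripts with a like pattern can be compared. Capitals mark the motifs searched that occur there, on either strand: the CCAAT box (CCAAT), the GC box (GGGCGG), the cAMP response element (TGACGTCA), the E-box CACGTG and the TATA box (TATAAA).
Wtap, chr17:12992494-12992793, minus strand: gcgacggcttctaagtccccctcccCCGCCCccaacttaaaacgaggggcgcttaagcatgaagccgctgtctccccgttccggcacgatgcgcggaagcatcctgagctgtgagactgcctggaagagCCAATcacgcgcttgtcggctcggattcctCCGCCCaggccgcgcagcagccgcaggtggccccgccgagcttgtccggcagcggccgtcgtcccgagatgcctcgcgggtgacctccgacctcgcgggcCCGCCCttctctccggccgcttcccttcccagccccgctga
Dnajb9, chr12:44210019-44210318, minus strand: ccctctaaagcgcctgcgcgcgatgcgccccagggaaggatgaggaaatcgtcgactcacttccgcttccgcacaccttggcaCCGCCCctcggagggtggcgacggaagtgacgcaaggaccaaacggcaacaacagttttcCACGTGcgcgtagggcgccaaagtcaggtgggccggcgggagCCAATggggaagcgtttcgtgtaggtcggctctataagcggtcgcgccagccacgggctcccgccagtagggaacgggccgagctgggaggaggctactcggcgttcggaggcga
Cd200, chr16:45409004-45409303, minus strand: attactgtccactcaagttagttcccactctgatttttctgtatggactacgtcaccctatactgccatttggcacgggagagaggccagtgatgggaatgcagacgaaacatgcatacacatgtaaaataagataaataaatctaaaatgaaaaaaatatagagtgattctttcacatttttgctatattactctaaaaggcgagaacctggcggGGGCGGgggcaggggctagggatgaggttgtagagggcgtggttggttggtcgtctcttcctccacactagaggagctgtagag
Skp1, chr11:52231745-52232044, plus strand: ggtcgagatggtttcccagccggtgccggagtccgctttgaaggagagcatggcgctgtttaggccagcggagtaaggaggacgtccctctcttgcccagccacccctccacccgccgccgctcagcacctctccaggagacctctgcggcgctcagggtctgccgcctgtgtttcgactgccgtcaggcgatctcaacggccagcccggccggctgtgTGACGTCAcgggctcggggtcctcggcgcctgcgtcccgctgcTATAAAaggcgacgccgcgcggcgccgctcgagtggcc
Desi2, chr1:178187167-178187466, plus strand: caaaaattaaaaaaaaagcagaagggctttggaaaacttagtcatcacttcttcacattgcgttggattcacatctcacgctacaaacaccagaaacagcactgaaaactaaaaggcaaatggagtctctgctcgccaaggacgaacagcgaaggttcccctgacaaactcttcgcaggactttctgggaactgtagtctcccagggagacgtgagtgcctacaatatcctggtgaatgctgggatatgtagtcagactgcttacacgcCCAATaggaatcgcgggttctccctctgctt

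The 5 windows differ from each other. That of Wtap held 3 GC boxes, read as CCGCCC on the printed strand, and a CCAAT box whose first base lies 121 bases before the start. The Dnajb9 window held a GC box, an E-box and a CCAAT box, whose first bases lie 167, 107 and 65 bases before the start. The Skp1 window held the palindromic cAMP response element 31 bases before the start and TATAAA just after it. Cd200 had a single GC box, and Desi2 a single CCAAT box downstream of the start. Over the 29 matched members the GC box was present in 19 (65.5%), against 59.9% of 2109 promoters of genes that could meet the rule and 35.9% of 27025 promoters in all. CCAAT was present in 12 members (41.4%), against 37.4% and 37.9%, and CACGTG in 2 (6.90%), against 9.29% and 7.24%. The cAMP response element was present in Skp1 and Efcab14 (6.90%), against 3.13% and 1.88%, and TATAAA in 4 members (13.8%), against 8.82% and 14.2%. The ETS motif CCGGAAG was present in 5 members (17.2%), against 14.8% and 9.12%, and the E-box CAGATG in 4 (13.8%), against 12.6% and 17.2%. The letters TGACGTGG, the NRF1 motif and the ER stress element were in none of the 29, against 0.996%, 1.33% and 0.142% of the promoters of genes that could meet the rule. Both strands were read and matches could overlap. Median GC content was 62.0% in members, 60.0% in genes that could meet the rule and 52.7% over all promoters. A match of letters is a description and no evidence of a bound factor.

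Wtap, the regulatory subunit that holds the m6A methyltransferase in nuclear speckles, had the highest ageing mean of the members (gene at chr17:12966799-12992543). Its centred log2 ratios in WT mice of 12 over 3 months were 3.60, 3.10 and 5.89 on arrays 1, 2 and 3, a mean of 4.20 ± 1.49 (SD, n = 3 arrays), or 18.4-fold. In 3xTG over WT mice at 3 months they were 0.99, 2.04 and 4.61, a mean of 2.55 ± 1.86 (SD, n = 3). In 3xTG over WT mice at 12 months they were -1.76, -1.95 and -1.31, a mean of -1.67 ± 0.33 (SD, n = 3), or 0.314-fold. Every array of the first comparisons was above 0 and every array at 12 months below it, so the groups of arrays did not overlap. Array 3 was highest in both high comparisons. Both of these arrays had mouse 16 as their reference, as had ageing array 2, which gave the lowest ageing value.

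Dnajb9, an ER-resident DnaJ co-chaperone of the unfolded protein response, had the tightest ageing values among these 6 (chr12:44205897-44210068). Its ageing ratios were 2.72, 2.53 and 2.56, a mean of 2.60 ± 0.10 (SD, n = 3). At 3 months the 3xTG over WT ratios were 1.11, 2.66 and 3.72, a mean of 2.50 ± 1.32 (SD, n = 3), and at 12 months -0.35, -0.01 and -0.21, a mean of -0.19 ± 0.17 (SD, n = 3). The young genotype ratios thus spread far more widely than the ageing ratios, while the 12-month ratio stayed close to the array median. Linear ratios were 6.08, 5.64 and 0.877 in the 3 comparisons.

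Cd200 encodes a neuronal surface glycoprotein whose receptor on microglia restrains their activation (chr16:45382111-45409060). It was at 2.87, 2.27 and 3.71 in WT ageing, 0.40, 1.84 and 3.61 in 3xTG over WT mice at 3 months, and -0.56, -0.18 and -1.27 at 12 months. The means were 2.95 ± 0.72, 1.95 ± 1.61 and -0.67 ± 0.55 (SD, n = 3 each). As with Wtap, array 3 was highest in both high comparisons. The lowest high array, at 0.40, was still above all 3 arrays at 12 months.

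Rit2 encodes a small GTPase of neurons that binds calmodulin. Its ratios were 2.43, 1.68 and 2.54 in WT ageing, 2.50, 2.84 and 3.08 in 3xTG over WT mice at 3 months, and 0.21, -0.12 and 0.70 at 12 months. This probe had the smallest spread of these 6 in the young genotype comparison, with a mean of 2.80 ± 0.29 (SD, n = 3). Its 12-month values lay on both sides of 0, with a mean of 0.26 ± 0.41 (SD, n = 3). Another Rit2 probe was at 0.69, -2.92 and -3.55 in the young genotype comparison.

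Skp1, the adaptor that links F-box proteins to the cullin of SCF ligases, varied little between arrays, with SDs of 0.16, 0.48 and 0.34 in the 3 comparisons (gene at chr11:52230522-52246858, n = 3 arrays each). Its ratios were 1.70, 1.90 and 2.02 in WT ageing, 1.39, 1.58 and 2.30 in 3xTG over WT mice at 3 months, and -0.06, -0.46 and 0.22 at 12 months. Desi2, named for its similarity to a deSUMOylating isopeptidase, was at 2.60, 1.24 and 2.02, at 1.16, 1.55 and 1.93, and at -0.02, -0.92 and 0.02 in the same order (chr1:178187417-178252598). Both probes kept all 6 high arrays above all 3 arrays at 12 months. Another Desi2 probe was at -2.18 and -0.98 in 3xTG over WT mice at 3 months.

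**Figure D1:**
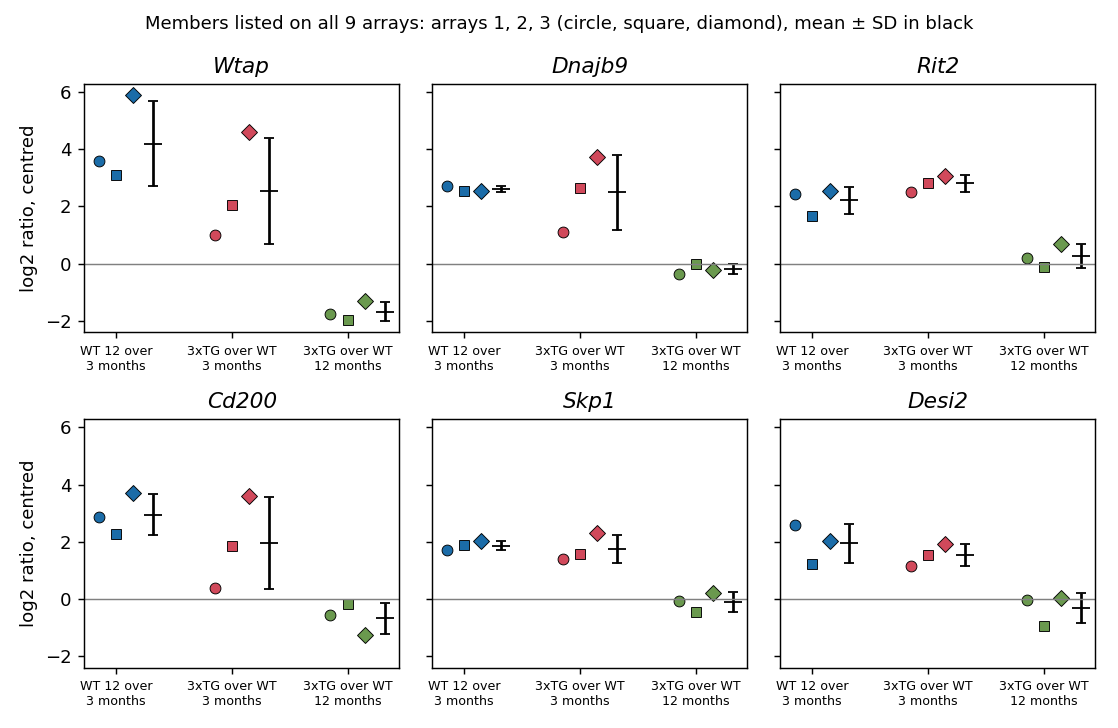
Centred log2 ratio (y axis) of the 6 members listed on all 9 arrays, by comparison (x axis). Circles, squares and diamonds are arrays 1, 2 and 3, and black bars are mean ± SD. In each gene all 6 arrays of WT 12 over 3 months and of 3xTG over WT at 3 months lie above the 3 arrays of 3xTG over WT at 12 months. Over listed arrays this held in 24 of all 35 members and in 4.49% of the probes that could meet the rule.

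The nearest patterns among other genes were looked for over the 107 remaining probes listed on all 9 arrays. The measure was the root mean square distance to the median profile of all 35 members over the 9 arrays. Ywhae, a 14-3-3 adaptor protein, was nearest at 1.07, followed by Flrt3, an adhesion protein of synapses, at 1.19 and Meis2, a homeodomain transcription factor, at 1.27. Dsg1b and Hdac8 followed at 1.61 and 1.67. The 6 members listed on all 9 arrays, whose values are part of that profile, lay at 0.50 (Dnajb9) to 1.65 (Wtap). Ywhae averaged 1.06 in WT ageing, 1.54 in 3xTG over WT mice at 3 months and 0.39 at 12 months, so it missed the ageing threshold.

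Across all members the ageing means ran from 1.66 to 4.20 with a median of 2.12, and those of 3xTG over WT mice at 3 months from 1.502 to 5.31 with a median of 2.06. The 12-month means ran from -3.47 to 0.99 with a median of -0.31. The same medians over the 2719 probes that could meet the rule were -0.18, 0.22 and 0.87. The rule fixes where the members stand, so nothing is read from these gaps. An ageing mean of 1.5 or more was found in 12.7% of these probes, a 3-month genotype mean of 1.5 or more in 25.9%, a 12-month genotype mean below 1 in 52.2% and all of these together in 1.29%. Both high means were met by 4.12%.

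**Figure D2:**
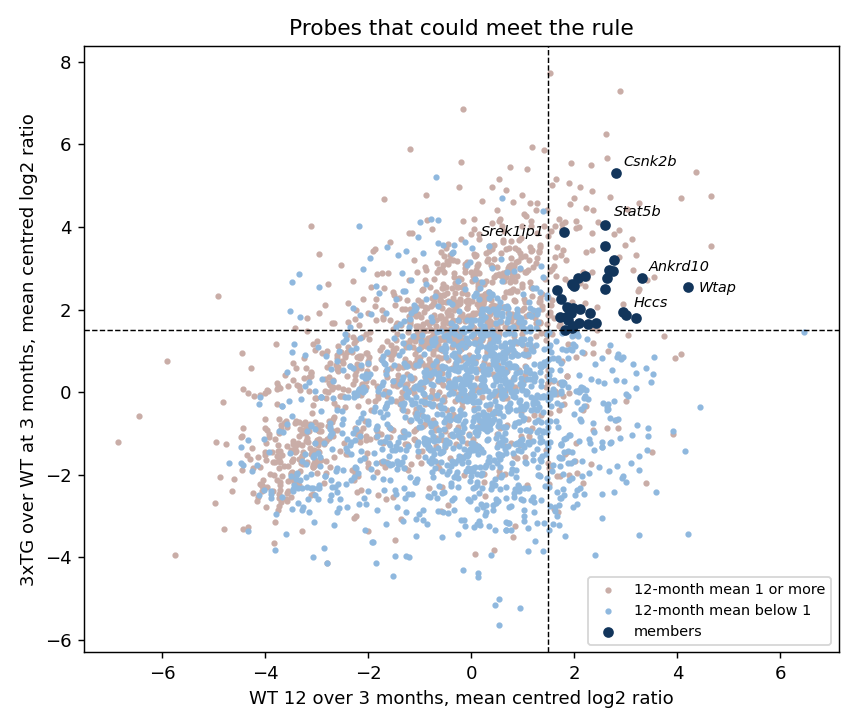
Mean centred log2 ratio of WT 12 over 3 months (x axis) and of 3xTG over WT at 3 months (y axis) for the 2719 probes that could meet the rule. Dark points are the 35 members, blue points have a 12-month genotype mean below 1 and pink points 1 or more, and dashed lines mark 1.5. Members share the upper right corner with 77 probes that had 12-month means of 1 or more.

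Member values differed between arrays as well as between comparisons. The median over listed members was 2.35, 2.45 and 2.54 on the ageing arrays, 1.82, 2.66 and 2.48 on the 3-month genotype arrays, and -0.58, -0.19 and -0.21 on the 12-month arrays. In the 3-month genotype comparison, array 1 (3xTG mouse 23) gave the lower value than array 2 (3xTG mouse 22, same WT mouse 15) in 17 of 21 members listed on both. Array 1 was likewise below array 3 (mouse 22 over mouse 16) in 15 of 21, whereas arrays 2 and 3, which share 3xTG mouse 22, had a median difference of -0.01 over 19 members. Array 3 of WT ageing (mouse 25 over 16) exceeded array 2 (24 over 16) in 12 of 17 members. At 12 months array 3 (mouse 7 over 24) exceeded array 1 (4 over 24) in 14 of 20 members and array 2 (4 over 25) in 17 of 27. No share over all probes is given for these counts. Each comparison holds a single array with the test RNA in Cy5, and its member medians were 2.35, 2.48 and -0.21, against 2.45 and 2.54, 1.82 and 2.66, and -0.58 and -0.19 on the arrays with Cy3.

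Raw file codes of 57 to 66, whose meaning the labels do not give, belonged to the 3 ageing arrays and to array 1 of each genotype comparison. On those first arrays the member medians were 1.82 at 3 months and -0.58 at 12 months, and on the arrays with codes of 86 to 91 they were 2.66 and 2.48 at 3 months and -0.19 and -0.21 at 12 months.

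**Figure D3:**
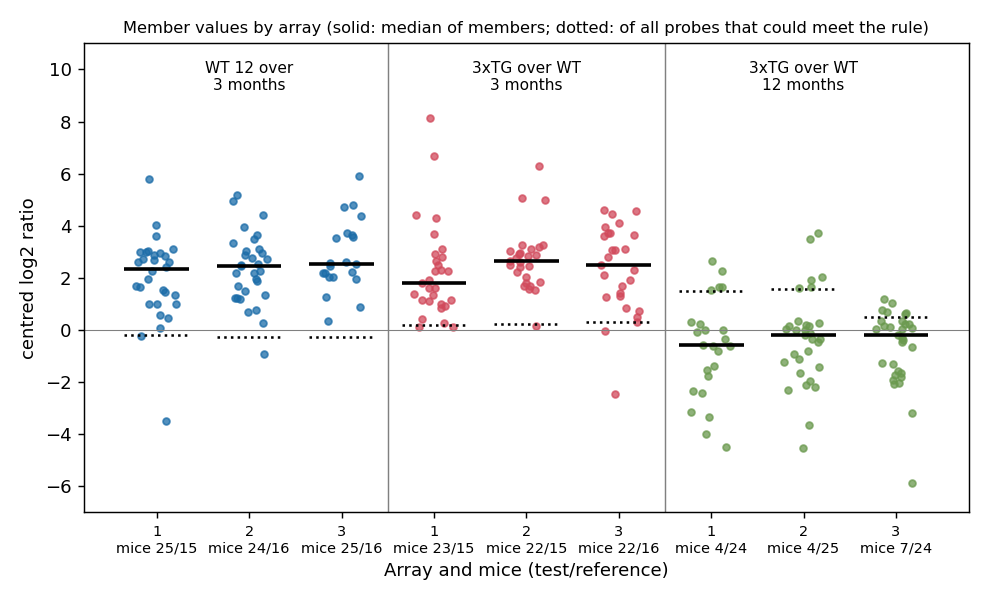
Centred log2 ratio (y axis) of every listed member on each of the 9 arrays (x axis, with test and reference mice). Solid bars are member medians, from 1.82 to 2.66 on the 6 high arrays and from -0.58 to -0.19 on the 12-month arrays, and dotted bars are medians over the probes that could meet the rule.

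Of the 35 members, 31 were above 0 on every listed array of both high comparisons, as were 10.2% of the probes that could meet the rule. The other 4 were Scn3b, Spata5, Gemin8 and Tmem45a. In 24 members every listed high array lay above every listed 12-month array (4.49% of the same probes), and in 11 the arrays overlapped. The 12-month mean was below 0 in 22 members (35.2% of the same probes), of which 12 were below 0 on every listed array there (21.8%). In 9 members it was -1 or lower. The other 13 had 12-month means from 0 to 1. These signs are relative to the array median: without centring, with centring on abundant transcripts and with centring on the probes listed on all 9 arrays, all 35 members had 12-month means below 0, as did 54.7%, 68.0% and 72.8% of the probes that could meet the rule. At 3 months the genotype means were above 0 in all 35 without centring and on abundant transcripts, and in 30 with the last centring. The median SD over the arrays of a comparison was 1.02 in WT ageing, 1.10 in the 3-month and 0.93 in the 12-month genotype comparison, close to 1.03, 1.16 and 0.86 over all probes that could meet the rule. An SD below 1 in all 3 comparisons was found in 5 members: Rit2, Skp1, Desi2, Stat5b and Efcab14.

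Members with roles in RNA and gene regulation numbered 7, Wtap among them. Stat5b, a transcription factor activated by cytokine and growth hormone receptors, was at 2.67 and 2.50 in WT ageing, 4.40 and 3.71 in 3xTG over WT mice at 3 months, and -2.11 and -1.91 at 12 months. Its listed arrays were 2 per comparison and lay close to each other in each. Neurod1, a transcription factor of neuronal differentiation and of dentate granule cells, was at 4.04, 1.49 and 1.26 in WT ageing, 1.62 and 1.67 at 3 months, and -0.60, -0.35 and 0.10 at 12 months. Srek1ip1, named as an interactor of a splicing regulator, had 8.13 on array 1 of 3xTG over WT mice at 3 months, against 2.23 and 1.29 on arrays 2 and 3. Its mean of 3.88 ± 3.71 (SD, n = 3) there thus rests mainly on array 1.

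Tet3, an oxidase of 5-methylcytosine that starts DNA demethylation, was at 1.00 and 2.45 in ageing and 1.16 and 2.48 in 3xTG over WT mice at 3 months, but split at 12 months with -3.34 and 2.04. Gemin8, a part of the SMN complex that assembles spliceosomal particles, had a 12-month mean of -2.42 ± 1.06 (SD, n = 2) and was at -0.05 on array 3 at 3 months. Iars2, the mitochondrial isoleucyl-tRNA synthetase, had 4.97 and 0.30 in 3xTG over WT mice at 3 months. The groups of arrays did not overlap in 5 of these 7 members and overlapped in Tet3 and Iars2. They did not overlap in 24 of all 35 members and in 4.49% of the probes that could meet the rule.

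Members acting in protein folding, modification and traffic also numbered 7, with Dnajb9, Skp1 and Desi2 described above. Washc4, a subunit of the WASH complex that builds actin on endosomes, was at 2.28 and 1.96 in WT ageing, 0.85, 2.44 and 2.79 in 3xTG over WT mice at 3 months, and -1.53, -2.18 and -0.66 at 12 months. Golm2, a Golgi membrane protein, was at 2.61 and 2.73 in ageing, 1.82, 2.63 and 4.44 at 3 months, and 0.31, 0.25 and 0.62 at 12 months. In both genes all high arrays exceeded all 12-month arrays, with 12-month means of -1.46 for Washc4 and 0.39 for Golm2, that of Golm2 below 0 under the other centrings. Csnk2b, the regulatory subunit of casein kinase 2, had the highest 3-month genotype mean of all members, 5.31 ± 1.94 (SD, n = 2), from 6.68 and 3.94. Its 12-month values of 1.65 and 0.33 gave a mean of 0.99, just under the threshold. Spata5, an AAA ATPase, was at 5.78 and -0.94 in WT ageing, so its ageing mean covers values of opposite sign. The arrays of the high comparisons lay above those at 12 months in 6 of these 7 members, Spata5 being the exception, as in 24 of all 35. In Csnk2b the margin was narrow, with a lowest high array of 1.67 and a highest 12-month array of 1.65.

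Neuronal signalling and cell surface genes were a further 7, with Cd200 and Rit2 among them. Scrib, a cell polarity scaffold, had the lowest 12-month mean of all members, -3.47 ± 1.49 (SD, n = 2), from -2.42 and -4.52. Its ageing values were 3.64 and 0.36 and its 3-month genotype values 2.26 and 2.89. Mpp2, a membrane-associated guanylate kinase of the postsynapse, was at 2.95, 1.34 and 2.59 in ageing, 3.70 and 0.14 in 3xTG over WT mice at 3 months, and -4.01 and -1.65 at 12 months. These scaffolds thus had the lowest 12-month means of the 35.

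Scn3b, a beta subunit of voltage-gated sodium channels, had -0.23 and 4.39 in ageing, 2.30 and 3.26 at 3 months, and -0.80 and -0.82 at 12 months. Klhl1, a Kelch protein that binds actin in neurons, had 0.78 and 4.70 in ageing, 2.78 and 3.11 in 3xTG over WT mice at 3 months, and -0.63 and -0.46 at 12 months. In both, the genotype arrays were even and the ageing arrays far apart. Rasl12, a Ras-like small GTPase, was the member nearest the 3-month threshold, at 1.502 from 2.50 and 0.51, and its 12-month values ran from -2.02 to 1.66. The groups of arrays did not overlap in 6 of the 7, Rasl12 being the exception, as in 24 of all 35 members.

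Mitochondrial and lipid genes, apart from Iars2 above, were 3, with 12-month means from 0.16 to 0.81 relative to the array median, all below 0 under the other 3 centrings. Hccs, the synthase that attaches haem to cytochrome c, was at 1.36, 2.87 and 4.79 in ageing, 0.13 and 3.64 in 3xTG over WT mice at 3 months, and 0.00, 0.14 and 0.34 at 12 months. Cers5, a ceramide synthase, was at 2.86 and 3.54 in ageing, 0.90, 2.40 and 2.11 at 3 months, and -0.34 and 1.18 at 12 months. Slc25a27, a mitochondrial carrier of the uncoupling protein family that is expressed in brain, was at 3.02 and 0.70 in ageing, 1.36 and 2.76 at 3 months, and 2.63, 1.62 and -1.82 at 12 months. The arrays overlapped between the high comparisons and the 12-month comparison in all 3, as in 11 of all 35 members.

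A group of 6 is best known from other tissues. They are Hpd, the tyrosine-degrading dioxygenase of liver, Slc15a1, the peptide transporter of the intestine, Slc5a12, a lactate transporter of kidney, Prl7c1, a prolactin family hormone of placenta, Il7, a cytokine for lymphocytes, and Actrt3, an actin-related protein of testis. All 6 were above 0 on every listed high array, as were 31 of all 35 members. Their 12-month means were below 0, from -2.40 (Prl7c1) to -0.13 (Hpd), as were those of 22 of the 35 with this centring and of all 35 under the others. Hpd spread widely, with 0.09 and 5.18 in ageing and -2.33, 1.90 and 0.05 at 12 months, and Il7 was at 1.55, -3.63 and -3.18 at 12 months. Whether these transcripts are present in hippocampus could not be read from ratios.

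The 5 remaining members are little known: Ankrd10, Efcab14, Tmem45a, 2610318N02Rik and the long non-coding RNA A730049H05Rik. Efcab14, which has an EF-hand domain by name, was at 3.01 and 2.20 in ageing, 3.10, 2.96 and 4.58 in 3xTG over WT mice at 3 months, and 0.01 and 0.25 at 12 months. A730049H05Rik was at 3.35 and 2.21, at 2.26 and 4.12, and at 0.19 and 0.76 in the same order. In both the arrays of the high comparisons lay above those at 12 months, and their 12-month means, just above 0 here, were below 0 under the other centrings. Tmem45a, a transmembrane protein, had the largest SDs of any member in both genotype comparisons and an SD of 4.71 in ageing, next to 4.75 for Spata5, with -3.48, 4.95 and 4.36 in ageing, 6.29 and -2.47 at 3 months, and 2.25, 3.73 and -5.89 at 12 months, so its means stand for no single array. Ankrd10 had the highest 12-month mean after Csnk2b, 0.88, from 3.50 and -1.73.

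**Figure D4:**
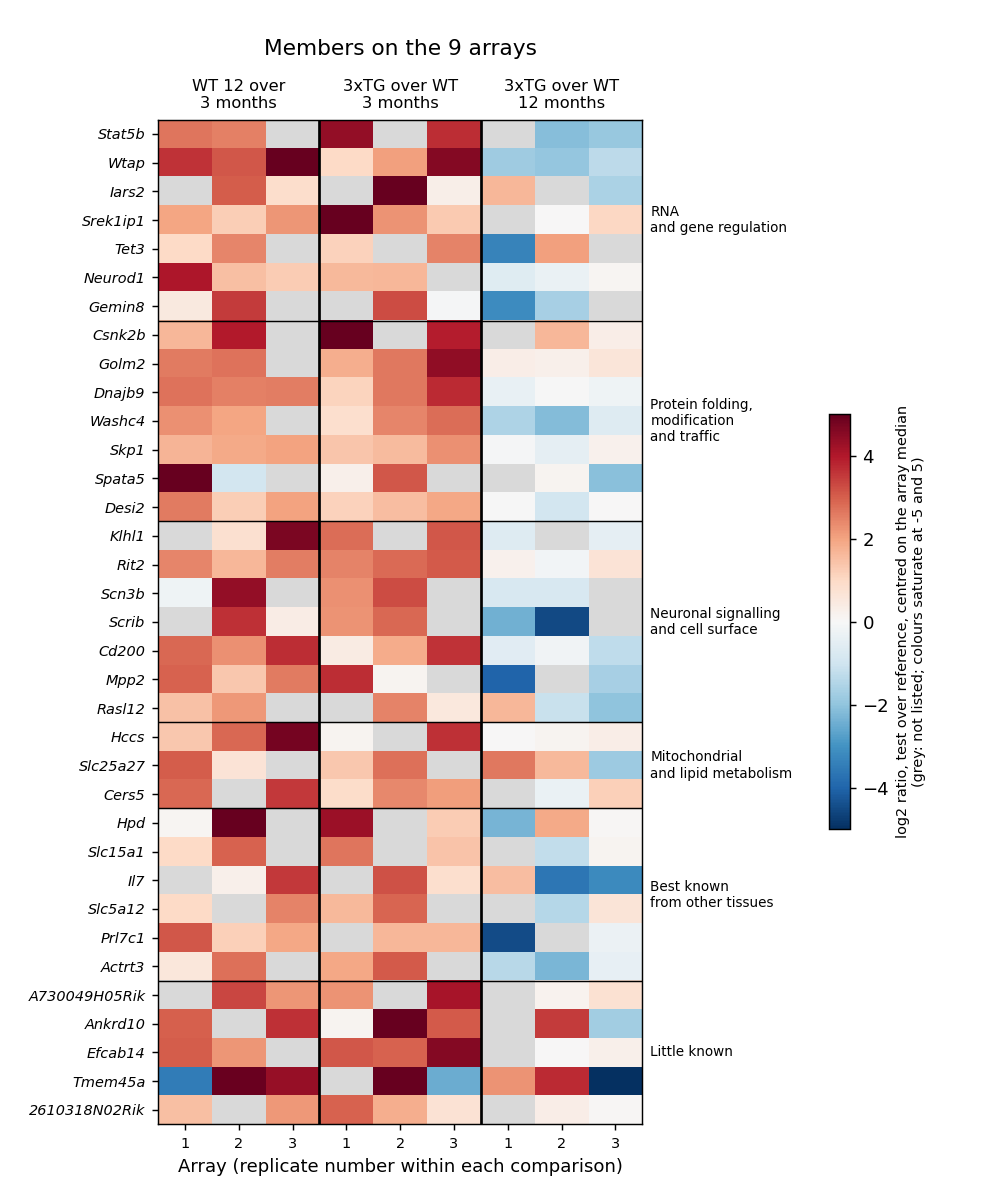
Centred log2 ratio of the 35 members (rows, grouped by role) on the 9 arrays (columns, 3 per comparison). Red is higher in the test mouse, blue is lower, grey is not listed, and colours saturate at -5 and 5. Blue is frequent in the 12-month columns, where 22 of the 35 means are below 0 with this centring and all 35 under the other centrings.

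Adding the 12-month genotype mean to the ageing mean sets the 3xTG mice of 12 months against the WT mice of 3 months. On this scale the members had a median of 1.98 in 3xTG mice of 12 months, 2.12 in WT mice of 12 months and 2.06 in 3xTG mice of 3 months, with WT mice of 3 months at 0. The sum was 1.5 or more in 21 members and above 0 in 31. Since the rule sets its ageing part at 1.5 or more, sums above 0 are in part built in, and no share over all probes is given. The highest sums were those of Ankrd10 (4.19), Csnk2b (3.81) and Cers5 (3.62). The 4 at or below 0 were Scrib (-1.47), Mpp2 (-0.53), Gemin8 (-0.43) and Prl7c1 (-0.31), which in the 3xTG mice of 12 months stood at or below the level of the WT mice of 3 months. Values in 3xTG mice of 3 months and WT mice of 12 months, both relative to the WT mice of 3 months, were within 1 of each other in 29 of 35. The 3xTG mice of 3 months were higher in 18 members and the WT mice of 12 months in 17. The rule set the same threshold of 1.5 for both means, so their closeness is in part built in. No share over all probes that could meet the rule is given for these counts, and nothing is read from them. Only the steps that were hybridised were measured, and these sums add their errors. They also depend on the centring. The medians in 3xTG mice of 12 months, WT mice of 12 months and 3xTG mice of 3 months were 2.72, 4.12 and 2.58 without centring, 0.85, 2.72 and 1.47 with abundant transcripts, and -0.16, 2.18 and 0.64 with the probes listed on all 9 arrays. The sum was above 0 in 34, 25 and 14 members in these settings, and 3xTG mice of 3 months were above WT mice of 12 months in 3, 3 and 2 of 35. So the 3 member medians lay near each other only with the array-median centring that chose the members, and nothing is read from this.

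**Figure D5:**
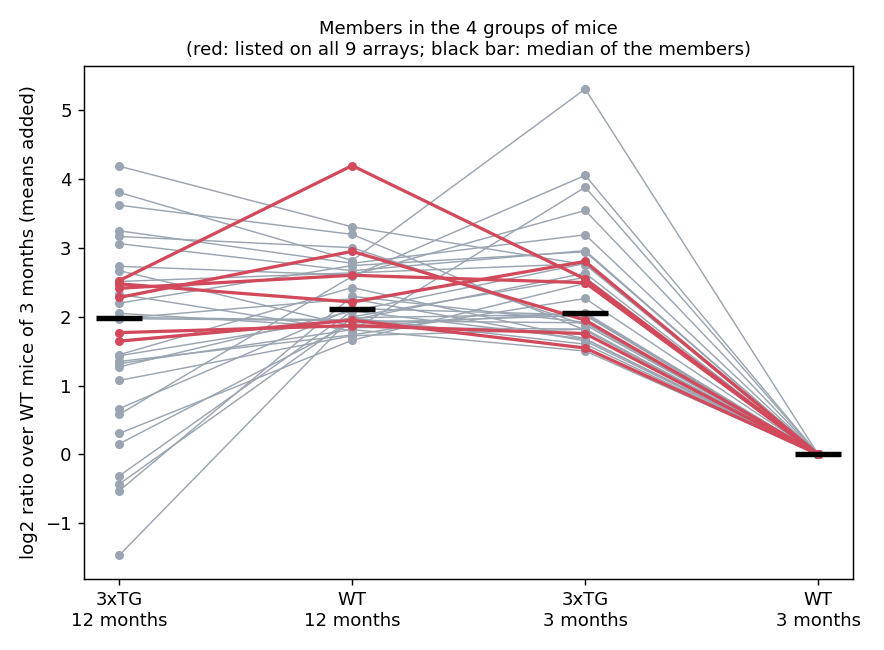
Mean log2 ratio over the WT mice of 3 months (y axis) for each member in the 4 groups of mice (x axis). The 3xTG 12-month value is the sum of the ageing and 12-month genotype means, red lines are the 6 members listed on all 9 arrays, and black bars are medians of 1.98, 2.12 and 2.06, with WT mice of 3 months at 0. Under the other centrings the median of 3xTG mice of 12 months ran from -0.16 to 2.72.

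A set of 77 probes met both high thresholds but had 12-month means of 1 or more. Their ageing means were alike, with medians of 2.12 in members and 2.18 in the 77. The 3-month genotype medians were 2.06 in members and 3.45 in the 77. The 3-month genotype mean exceeded the ageing mean in 18 of 35 members and in 62 of 77 other probes, and it was 3 or more in 5 of 35 and in 47 of 77. The 3-month genotype mean was part of the rule for both sets, so the difference is described without a test. Just inside the ageing threshold lay Actrt3 (1.66) and Tet3 (1.72), and just outside Kcnq1 (1.47) and Mei1 (1.46). At the 3-month threshold Rasl12 (1.502) and Desi2 (1.55) were inside and Sbf1 and Ppwd1 (both 1.47) outside. At the 12-month threshold Csnk2b (0.99) and Ankrd10 (0.88) were inside and Nat8f2 (1.03) and Cyc1 (1.28) outside.

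The arrays held 20 other probes for 18 of the member genes, whose values did not choose the members but come from the same mice and arrays. Of these, 1 was listed nowhere. In WT ageing 12 of 15 with a value were above 0 and 3 reached 1.5, in 3xTG over WT mice at 3 months 7 of 16 were above 0 and 3 reached 1.5, and at 12 months 13 of 18 were below 1. Of the 13 with a value in both high comparisons, 6 were above 0 in both. Only 3 were listed often enough to meet the rule, and none did: those for Gemin8 at -0.07 and -0.21 in the high comparisons, for Srek1ip1 at 1.09 and 5.40, and for Tet3 at -3.24 and 0.82.

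The other Srek1ip1 probe was thus high in 3xTG over WT mice at 3 months, at 4.57 and 6.22, and stayed at 1.63 at 12 months. The other Rit2 probe went against the member, at 0.69, -2.92 and -3.55 in 3xTG over WT mice at 3 months. That for Desi2 was at -2.18 and -0.98 there, and that for Neurod1 at 0.72 and 3.30 in ageing but -2.36 on its single array at 3 months. The other Csnk2b probe was listed on a single array of each comparison, at 2.52 in ageing, 2.12 at 3 months and 2.74 at 12 months. The probes' target regions were not compared here, so the disagreement between probes of a gene is left as measured.

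The members' pathways were set beside 27 lists of genes by function. Members occurred in 9 lists. Wtap was in m6A RNA methylation (1 of 5 probes that could meet the rule) and Dnajb9 among ER chaperones and the unfolded protein response (1 of 9). Washc4 was in WASH, retromer and sorting nexins (1 of 9). Skp1 was in Cullin-RING ligases and Kelch adaptors (1 of 10) and Golm2 in Golgi and coat traffic (1 of 16). Tet3 was 1 of 22 chromatin regulators, Neurod1 1 of 12 neuronal transcription factors, Scn3b 1 of 12 voltage-gated channel subunits, and Cd200 and Il7 were 2 of 10 immune genes. Each pathway was thus represented by 1 or 2 of its probes. In the limma fit across 3644 probes 0 probes of any list passed an adjusted p of 0.05 in either direction, in any of the 3 comparisons. The same held for all probes, with 0% called, while 431, 492 and 607 had an unadjusted p under 0.05 (11.8%, 13.5% and 16.7%) in WT ageing and in the 3-month and 12-month genotype comparisons. For 3xTG mice of 12 over 3 months, reached through the WT mice, it was 205 (5.63%).

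List medians, their members included, can be set beside -0.18, 0.22 and 0.87 over all probes that could meet the rule. The 5 m6A probes had medians of 0.67 in ageing, -0.95 in 3xTG over WT mice at 3 months and -1.80 at 12 months. The 9 ER chaperone probes had medians of -0.06, 0.92 and 1.27 in the same order, and the 9 sorting probes -0.30, 2.80 and 1.06. The 10 probes of Cullin-RING ligases and Kelch adaptors stood at -0.21, 2.08 and 2.01. Of them 3 met both high thresholds, Skp1, Fbxo11 and Klhl7, with Skp1 as the only member. The Kelch protein Klhl1, also a member of the 35, is not on this list.

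Markers of 14 cell types and neighbouring tissues were looked up on the same arrays, of which those of red blood cells and of oligodendrocyte precursors lacked a value on at least 1 high array. None of the other 12 lists had a median above 0 on all 6 high arrays, and list medians there ran from -3.16 to 2.72. Many rest on few probes. The lowest is that of 3 ependymal probes and the highest that of 2 probes of endothelium and pericytes. The most was 4 of the 6, for the markers of neurons, microglia, choroid plexus, ependyma and thalamus or habenula, while those of dentate granule cells were above 0 on 2 and those of interneurons on none. On the 3-month genotype arrays several lists were above 0 as the members were. Neuronal medians there were 0.22, 1.34 and 1.95 (11, 8 and 8 probes) and choroid plexus medians 1.05, 1.79 and 0.90 (4, 5 and 4 probes). Ependymal medians were 0.56, 0.79 and 0.05, from only 3, 2 and 1 probes. Choroid plexus medians were -1.43, -1.15 and 0.29 in ageing and -1.17, -1.48 and 0.92 at 12 months, so they went with the members at 3 months and on 12-month arrays 1 and 2 but not on ageing arrays 1 and 2. Neuronal medians were -1.39, -0.09 and 0.35 in ageing and -0.05, 1.88 and -0.06 at 12 months. Dentate granule cell medians were 0.99, 0.71 and -0.10 in ageing, -2.36, -0.26 and -0.40 in 3xTG over WT mice at 3 months, and -1.43, -0.08 and 0.10 at 12 months. The median of this list was thus below 0 on all 3 of the 3-month genotype arrays, while Neurod1, which belongs to it, was at 1.62 and 1.67. The part of any cell type in the members' ratios was not tested.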

How the data were processed

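Hippocampal RNA of 8 mice was linearly amplified, labelled with Cy5 or Cy3 and hybridised on 9 arrays, per the labels' protocols. The authors deposited ratios for 29922 probes on a scale read here as log2 of test over reference, and how they made them (scanner, background correction, filter, normalization) is not given in the sources used here. The base is taken from the spread of the values and the direction rests on the labels alone. The number of arrays limits the precision, since depth has no meaning here and signal over background is unknown.

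Array medians over listed values were subtracted with numpy 2.4.6 and pandas 2.3.3 in Python 3.11.15, and the rule was applied to means over listed arrays. Symbols came from the platform annotation (21020 probes with 1 symbol, 8902 with none) and were updated through RefSeq GRCm38.p6: of 16675 symbols, 13905 were current, 2728 updated and 42 kept. The background fit used generalised least squares in limma 3.58.1 under R 4.3.3, with a dye term and a covariance between arrays from shared mice (between-mouse to between-array variance ratio 1.02, from 142 complete probes), eBayes and Benjamini-Hochberg adjustment at 0.05. Of 3696 probes listed on at least 2 arrays of each comparison, 3644 could be fitted, and the fit was tested on simulated data. Promoters were searched on both strands for 10 motifs. The full strain label of the 3xTG mice is not reported here.

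The members, gene lists, roles and tests were chosen with earlier results of these data known. By the rule for named genes, the text names members listed on all 3 arrays of both high comparisons, those listed on all 9, those in a function list, those with several probes, those nearest a threshold and the 5 nearest probes, and the others are named by role. Alternatives were other centrings, listing minima, thresholds, summaries, fits and leaving out each array. Experiment numbers in the titles do not pair samples: same-numbered arrays of different comparisons had deviations that correlated at -0.08 to 0.24 over 142 probes.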

Additional observations from a re-analysis of the deposited data

Results flagged for a closer look

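The genotype ratio had opposite signs at the 2 ages in 4 members: all 3 arrays of 3xTG over WT were above 0 at 3 months and all 3 below 0 at 12 months. Of the probes that could meet the rule and were listed on all 3 arrays at both ages, 7 of 298 (2.35%) had these signs, and 8 of those 298 were members. Counting every listed array, 11 of 35 members had them, against 4.08% of 2719 probes; besides these 4 they were Stat5b, Scrib, Klhl1, Mpp2, Actrt3, Prl7c1 and Scn3b. The difference between the ages was not tested, since the rule chose the members for a high ratio at 3 months and a lower one at 12 months. The sign at each age can come from the 3xTG mice or from the WT mice of that age. These cannot be told apart. For Wtap the 12-month genotype mean minus the 3-month mean was -4.22 on the log2 scale (-1.67 at 12 months and 2.55 at 3 months). For Washc4 it was -3.48 (-1.46 and 2.03 in the same order), for Dnajb9 -2.68 (-0.19 and 2.50) and for Cd200 -2.62 (-0.67 and 1.95). All 4 kept these signs without centring and with centring on abundant transcripts, but with centring on the 142 probes listed on all 9 arrays only Wtap and Dnajb9 did. Each of these settings lowers all 3 arrays at 12 months, so the negative sign there could not be lost. In these settings 5.37%, 5.37% and 2.68% of the 298 probes had these signs, as had 8, 6 and 4 of the 8 members among them.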

How the results depend on the processing

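The rule gave 35 members. It gave 336 without centring (all 35 kept), 83 with centring on abundant transcripts (16 kept) and 36 with centring on the probes listed on all 9 arrays (5 kept, none of them listed on all 9 arrays). It gave 6 when all 3 arrays had to be listed, 85 at a threshold of 1, 13 at a threshold of 2, 39 from medians (32 kept) and 44 from gene means (21 kept). Leaving out an array gave 18 to 29, in part because fewer probes could then qualify, with 18 without 12-month array 3 and 19 without ageing array 1. Since 2 listed arrays per comparison are needed, only the 6 members listed on all 9 arrays could stay members whichever array was left out. Of these, Dnajb9, Rit2 and Wtap did under all 9 omissions, and Cd200, Desi2 and Skp1 under 8. Member medians were 4.12 without centring and 2.72 with abundant transcripts in WT ageing, against 2.12 (2.12 to 2.47 leaving out an array). At 3 months they were 2.58, 1.47 and, with complete probes, 0.64, against 2.06 (1.88 to 2.73). At 12 months they were -1.46, -2.03 and -2.42, against -0.31 (-0.39 to -0.28). For 3xTG mice of 12 over 3 months through WT the median was -0.33 (-0.70 to -0.22), 0.0085 without centring, which removes its direction, and -0.90 with complete probes. Centring moves members and all other probes alike: the member median minus that of all probes that could meet the rule was 2.30, 1.84 and -1.18, and 2.37, 2.01 and -1.19 without centring.

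limma called 0 probes in each comparison, and also 0 with any array left out, other centrings or no dye term. On the 142 complete probes it called 21, 60 and 74 in ageing and in the 3-month and 12-month genotype comparisons, of which 6, 52 and 70 were above 0. The median fitted log2 ratio of these 142 probes was 0.05, 1.764 and 2.225 in the same order. As a set they thus lay above the array median in both genotype comparisons, and the calls there include this offset. With arrays taken as independent, which disregards shared mice, it called 66 and 56 in ageing and at 3 months. With the experiment number as a replicate block it called 0 of 3295, with 428, 487 and 586 at an unadjusted p under 0.05. Values closest to 0 are missing by the deposited limit of 0.5, which no choice above restores.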
